A study of Mus musculus with 8 samples.

Results

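Type I interferon-stimulated genes were followed in RNA from mouse bone marrow derived macrophages, primary cells grown from marrow and collected on day 7 of differentiation. The set holds 38 genes chosen by name, without the 2'-5' oligoadenylate synthetases and the inducible GTPases, and all 38 were found among the 55421 gene rows of the deposited table. The groups were wild type (WT, 4 libraries) and Baf60a KO (4 libraries), where Baf60a is the protein encoded by Smarcd1, a subunit of SWI/SNF chromatin remodelling complexes. Both groups had the same treatment label, macrophage differentiation, and the series title names C57 mice. The labels do not state the age of the mice, the driver and extent of the deletion, or whether the 4 libraries of a genotype came from separate animals. The p-values therefore measure the spread between these libraries, which may be technical. The comparison asks how the transcripts differ between WT and Baf60a KO macrophages.

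Type I interferons bind a shared receptor, and the kinases JAK1 and TYK2 then phosphorylate STAT2. STAT2 and IRF9 are subunits of ISGF3, a complex that binds interferon-stimulated response elements (ISRE) in the promoters of its targets. Macrophages sense viral nucleic acids, release interferon beta and, even when unstimulated, keep many of these genes on at a low level through weak tonic signalling.

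Values are TPM (transcript abundances that sum to an equal total per library), which correct for transcript length and keep no read depth. Smarcd1 was lower in all 4 KO libraries (9.91 to 10.9 TPM) than in any WT library (14.0 to 16.3 TPM), with a ratio of means of 0.705. Macrophage markers were present in every library, among them Cd68 (1322 to 1823 TPM) and Csf1r (90.8 to 122 TPM). Of the 7, 2 rose in KO and 1, the lysozyme gene Lyz2, fell (log2 fold change -1.05, limma adjusted p = 0.000195). The sum of the list was 5618 to 6513 TPM in WT and 4112 to 4448 TPM in KO, a difference that came from Lyz2. The other 6 all had fold changes above 0 (0.17 to 0.44) and summed to 1796 to 2204 TPM in WT and 2303 to 2401 TPM in KO. The share of TPM held by processed pseudogenes was 6.78% to 8.38% in 6 libraries, but 12.004% in WT replicate 3 and 12.25% in WT replicate 4. Of 7 stromal markers tested, 4 rose in KO (Col1a1, Col3a1, Pdgfrb and Thy1) and 0 fell, beside 4.4% and 1.21% of all genes tested. The list of 8 summed to 3234 to 3628 TPM in WT and 3948 to 4241 TPM in KO, mostly from Col1a1, Col1a2 and Col3a1. The markers did not all move alike. Dcn averaged 5.915 TPM in WT and 3.96 TPM in KO and was not called (log2 fold change -0.43, limma adjusted p = 0.277). Pdgfra averaged 11.2 and 11.8 TPM, and Lum, too low to be tested, 0.3475 and 0.22 TPM. In such bulk RNA, fewer cells of a type and less RNA per cell cannot be told apart.

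Within each genotype, replicate 3 stood apart for these genes, a pattern noticed after the values were seen. KO replicate 3 held the highest KO value for 35 of the 38 genes (92.1%), whereas it was the highest KO library for 25.7% of all genes tested. WT replicate 3 held the highest WT value for 23 of the 38 (60.5%), against 13.9% of all genes. For those same 23 genes replicate 3 was the highest library in both genotypes, which was so for 4.97% of all genes. The median gene of the set was 0.30 higher in KO replicate 3 than the mean of the other 3 KO libraries on the log2(TPM + 1) scale, and 0.15 higher in WT replicate 3 than the mean of the other 3 WT libraries. The corresponding medians over all genes were -0.01 and -0.07. The 3 genes that were not highest in KO replicate 3 were Ifi27, Ifi27l2a and Trim25, and each of them was lowest there. Processed pseudogenes did not mark KO replicate 3, where their share was 7.78%, and the part of the higher share in WT replicate 3 was not tested. Because of this pattern, the results below are given with both replicate 3 libraries and, where it matters, without them.

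**Figure D1:**
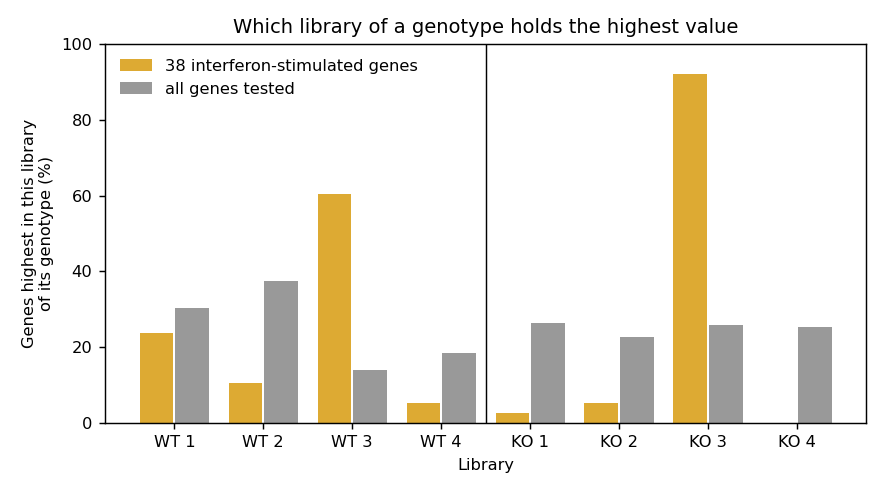
Share of genes (percent, vertical axis) whose highest value among the 4 libraries of a genotype falls in each library, for the 38 interferon-stimulated genes (yellow) and all 13933 genes tested (grey). KO replicate 3 reaches 92.1% and WT replicate 3 60.5% for the set, while KO replicate 4 is at 0%.

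**Figure D2:**
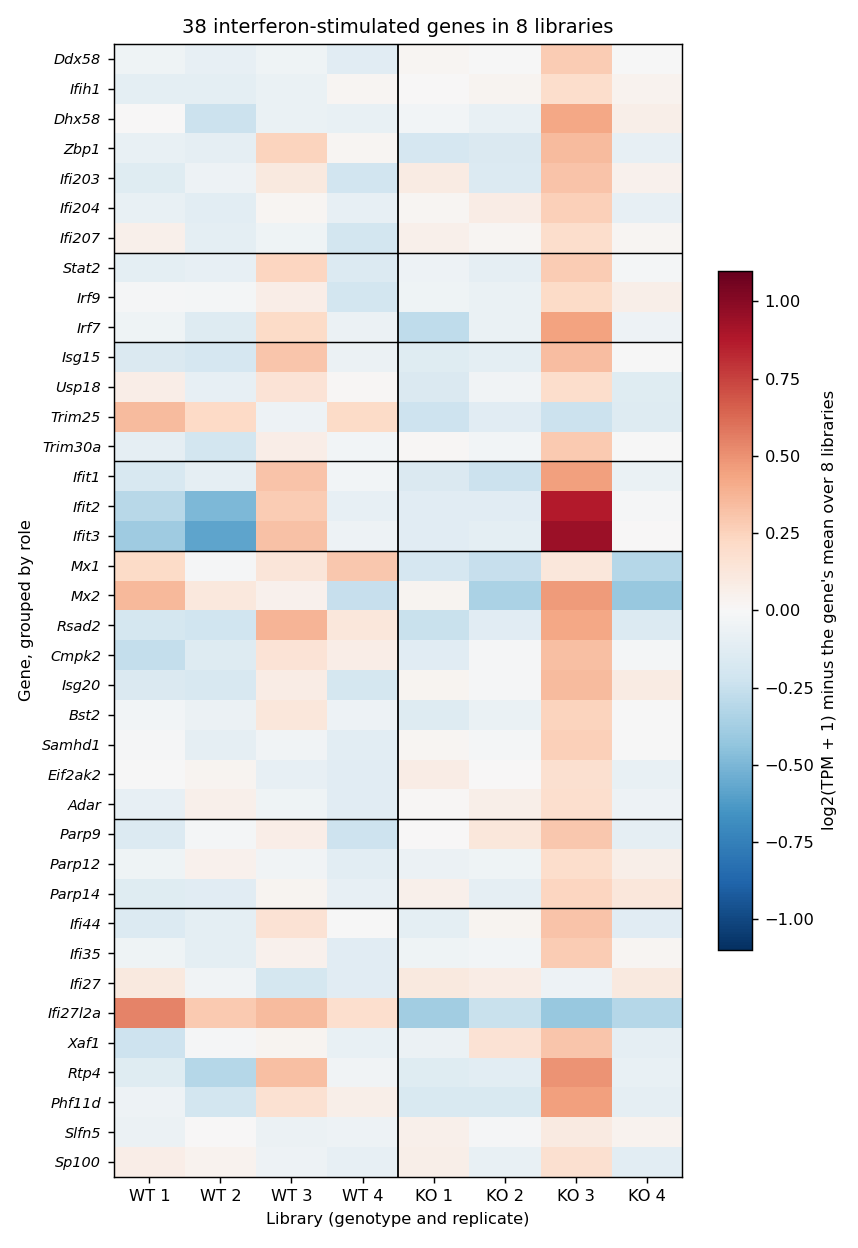
Level of each of the 38 genes in each library as log2(TPM + 1) minus the gene's mean over the 8 libraries (colour scale), with genes grouped by role. The KO 3 column is red for most rows, and the Ifi27l2a and Trim25 rows are mostly red in WT and blue in KO.

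All 38 genes had TPM over 1 in at least 4 libraries and were tested. Against WT, 2 of them fell in Baf60a KO, Ifi27l2a and Trim25, and 0 rose, at a limma adjusted p under 0.05. That is 5.26% of the set, beside 5.61% of the 13933 genes tested (4.4% higher and 1.21% lower in KO), so the share called was near that of all genes. At an unadjusted p under 0.05 there were 1 higher gene (Isg20) and 3 lower ones (Ifi27l2a, Trim25 and Mx1). The fold changes of the other 36 genes lay between -0.32 (Mx1) and 0.36 (Ifit3) on the log2(TPM + 1) scale, KO minus WT, and 30 of the 38 were above 0 (78.9%, against 57.5% of all genes). The median of the set was 0.09, against 0.03 for all genes. It moved with the replicate 3 libraries. Without KO replicate 3 it was 0.03, with 21 of 38 fold changes above 0, and without WT replicate 3 it was 0.13, with 33 of 38 above 0. Without both it was 0.06, with 26 of 38 above 0, and the same 2 genes were called. The median of the set moved with the scaling too. Under median-of-ratios scaling of TPM it was 0.06, against -0.01 for all genes, with 26 of 38 above 0. On TPM rescaled over protein-coding genes it was 0.07, against 0.01, with 26 of 37 above 0. Quantile normalization left 28 of 38 above 0. The WT and KO values did not overlap for 3 of the 38 (1 higher and 2 lower in KO), against 15.8% of all genes (11.9% higher and 3.96% lower).

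**Figure D3:**
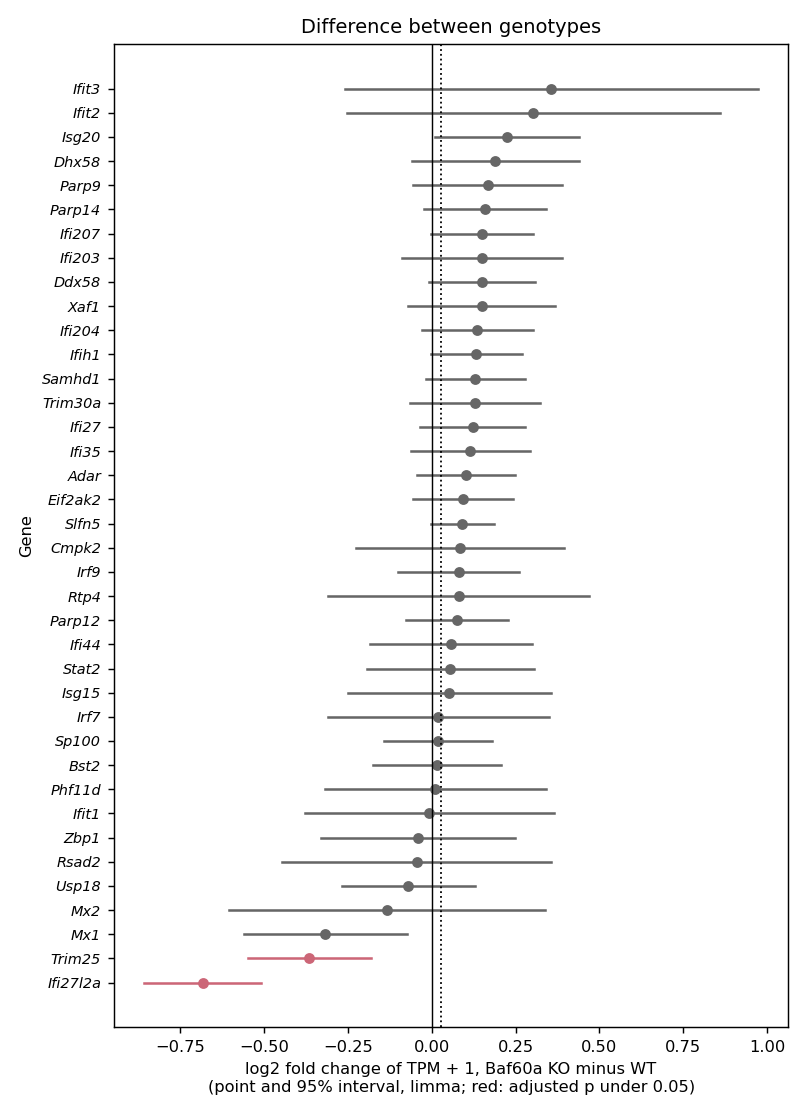
Log2 fold change of TPM + 1, Baf60a KO minus WT (horizontal axis), with the 95% interval from limma for each of the 38 genes, 4 libraries per genotype. Ifi27l2a and Trim25 (red) passed the adjusted threshold, the dotted line is the median of all genes tested (0.03), and the intervals of Ifit2 and Ifit3 are the widest.

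Ifi27l2a, a small hydrophobic protein of the ISG12 family that interferon induces strongly, showed the largest difference of the set. Its level was 602, 502, 523 and 467 TPM in WT replicates 1 to 4 and 315, 346, 307 and 329.6 TPM in KO. Every KO library was below every WT library. The means were 523 ± 56.9 and 325 ± 17.2 TPM (SD, n = 4), with KO at 0.620 of WT, a log2 difference of -0.68 (SE 0.076, limma adjusted p = 0.00368). The call held in all 8 fits that left out 1 library and in all 13 other alternatives. The gene lies on chromosome 12, 103442167 to 103443680 (build mm10, minus strand). Its neighbour and family member Ifi27 lies at 103434211 to 103440239 on the plus strand and encodes a protein of the inner mitochondrial and nuclear membranes. Ifi27 was at 245, 221, 198 and 207 TPM in WT and at 244, 240.1, 218 and 244 TPM in KO. These values overlapped, and the difference did not pass (log2 fold change 0.12, 95% interval -0.04 to 0.28, limma adjusted p = 0.344). No transcript of another gene matched Ifi27l2a at 90% identity over 300 bases.

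Trim25, the ubiquitin and ISG15 ligase best known for modifying RIG-I, was the other gene that fell. Its level was 92.6, 84.4, 69.6 and 84.1 TPM in WT and 61.6, 66.2, 61.4 and 65.5 TPM in KO. The KO libraries were tight and lay below all WT libraries, of which replicate 3 was the lowest. The means were 82.7 ± 9.56 and 63.7 ± 2.53 TPM, with a log2 fold change of -0.36 (SE 0.081, limma adjusted p = 0.0382). This call was close to the threshold and was lost without any 1 of the libraries other than WT replicate 3, with adjusted p from 0.0554 without WT replicate 1 to 0.106 without KO replicate 3. Without both replicate 3 libraries it was kept, at a log2 fold change of -0.43 (limma adjusted p = 0.0345).

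Mx1, a dynamin-like GTPase that blocks influenza virus and is known to be defective in C57BL/6 mice, had the next largest negative value and is described because of it, after its values were seen. It was at 12.9, 10.9, 12.1 and 13.7 TPM in WT and at 9.54, 9.01, 12.01 and 8.59 TPM in KO. KO replicate 3 alone lay inside the WT range. The log2 fold change was -0.32 (95% interval -0.56 to -0.07, limma adjusted p = 0.123), and -0.42 without both replicate 3 libraries (limma adjusted p = 0.0876), so the gene was not called in either fit. Its paralog Mx2, annotated as a polymorphic pseudogene, was at 4.17, 3.37, 3.16 and 2.37 TPM in WT and at 3.11, 2.17, 4.56 and 2.02 TPM in KO. The groups overlapped fully. Mx1 and Mx2 transcripts are 94.8% identical over 920 bases, so reads could have been split between them.

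**Figure D4:**
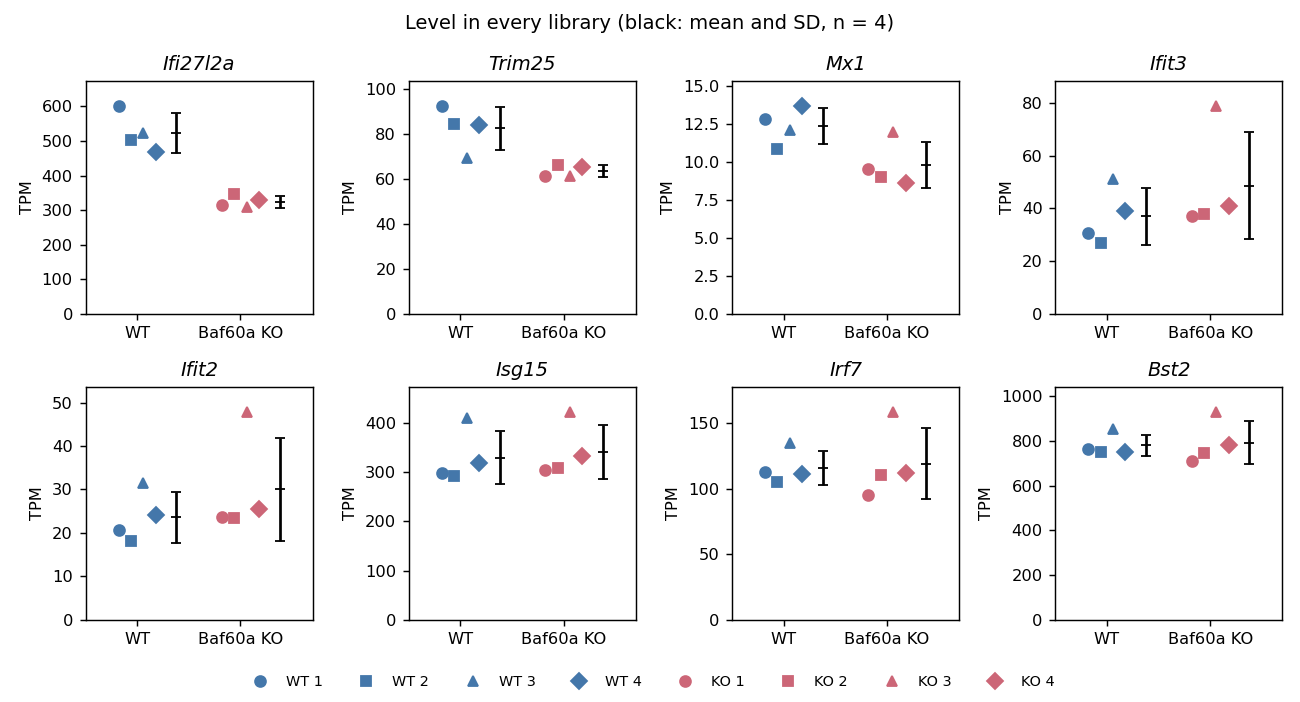
TPM (vertical axes, from 0) of 8 genes in every library, WT in blue and Baf60a KO in red, with a symbol for each replicate number and the mean and SD (n = 4) in black. Ifi27l2a and Trim25 separate by genotype, whereas in Ifit3, Ifit2, Isg15, Irf7 and Bst2 the triangle of replicate 3 is the highest point of both genotypes.

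The sensors of viral nucleic acid did not pass the test, 0 of 7, although 6 of the 7 fold changes were above 0 (median 0.15). Ddx58, which encodes the RNA helicase RIG-I, was the 1 gene of the set with every KO library above every WT library. It was at 23.6, 22.8, 23.5 and 22.3 TPM in WT and at 24.7, 24.3, 29.8 and 24.3 TPM in KO. The margin was small outside KO replicate 3, and the log2 fold change of 0.15 (95% interval -0.01 to 0.31, limma adjusted p = 0.25) became 0.09 without both replicate 3 libraries. The related helicases Ifih1 (MDA5) and Dhx58 (LGP2) ranged from 12.9 to 16.2 and from 20.7 to 33.2 TPM, each highest in KO replicate 3. Zbp1, a sensor of Z-form nucleic acid that can start necroptosis, was at 39.6, 39.0, 49.8 and 42.5 TPM in WT and at 36.8, 37.4, 53.7 and 39.2 TPM in KO. Here the libraries numbered 3 were the highest of both genotypes, and the other KO values lay below the WT range or at its lower end.

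The PYHIN genes Ifi203, Ifi204 and Ifi207 form a cluster on chromosome 1, and members of the family bind DNA. Ifi204, the most abundant sensor, was at 93.6, 91.6, 101 and 93.1 TPM in WT and at 101, 105, 119 and 93.2 TPM in KO. The groups overlapped (log2 fold change 0.14, limma adjusted p = 0.314). Ifi203 ranged from 13.2 to 19.5 TPM and Ifi207 from 33.3 to 44.3 TPM over the 8 libraries, with KO replicate 3 the highest for both. The Ifi204 transcript is 96.9% identical to that of Ifi211 over 1363 bases, and Ifi203 is 96.1% identical to Mndal over 762 bases, so the split of reads within this cluster is uncertain.

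None of the 3 transcription factors passed the test. Irf7, the interferon-induced amplifier of interferon production, was at 112, 105, 135 and 111 TPM in WT and at 95.5, 111, 158 and 112 TPM in KO. Irf9, the DNA-binding subunit of ISGF3, was at 28.7, 28.6, 30.7 and 25.1 TPM in WT and at 28.1, 27.6, 33.7 and 30.4 TPM in KO. For both genes replicate 3 was the highest library of each genotype. The log2 fold changes were 0.02 for Irf7 (95% interval -0.31 to 0.35), 0.08 for Irf9 (-0.10 to 0.26) and 0.06 for Stat2 (-0.19 to 0.30). Stat2 ranged from 25.5 to 34.8 TPM.

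Isg15, a ubiquitin-like modifier that is conjugated to proteins after interferon, was one of the most abundant genes of the set. It was at 298, 293, 410.1 and 318 TPM in WT and at 304, 309, 422 and 332 TPM in KO. Replicate 3 exceeded the other libraries of its genotype by a factor of 1.35 in WT and 1.34 in KO, and apart from it the genotypes lay close together (log2 fold change 0.05, 95% interval -0.25 to 0.35). Usp18, which removes ISG15 and restrains the interferon receptor, ranged from 17.9 to 23.1 TPM. Trim30a, a feedback regulator of inflammatory signalling, ranged from 23.7 to 33.6 TPM and was highest in KO replicate 3. Its transcript is 90.1% identical to that of Trim30d over 1719 bases.

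The IFIT proteins bind foreign RNA and inhibit its translation, and Ifit2 and Ifit3 varied more between libraries than any other members. Ifit3 was at 30.7, 26.8, 51.1 and 39.0 TPM in WT and at 37.1, 37.7, 78.8 and 40.9 TPM in KO. Ifit2 was at 20.7, 18.0, 31.4 and 24.1 TPM in WT and at 23.6, 23.5, 47.8 and 25.5 TPM in KO. For both genes KO replicate 3 was far above all other libraries and WT replicate 3 was next. The groups of Ifit3, with means of 36.9 ± 10.8 and 48.6 ± 20.2 TPM, overlapped (log2 fold change 0.36, 95% interval -0.26 to 0.97, limma adjusted p = 0.495). This fold change depended on replicate 3. It was 0.10 without KO replicate 3 (limma adjusted p = 0.852) and 0.52 without WT replicate 3. For Ifit2 the log2 fold change of 0.30 became 0.06 without KO replicate 3 (limma adjusted p = 0.897) and 0.45 without WT replicate 3. Ifit1 was lower, from 6.35 to 10.8 TPM, with the same order of libraries at the top. Ifit3 and Ifit3b transcripts are 97.8% identical over 1700 bases, and Ifit3b was listed at 2.29 to 8.6 TPM.

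Among restriction factors and antiviral enzymes 0 of 9 passed the test. Bst2 (tetherin), which holds budding virions at the cell surface, was the most abundant member, at 766, 748, 852 and 752 TPM in WT and 709.7, 745, 929 and 781 TPM in KO. Samhd1, which depletes the nucleotides that reverse transcription needs, was at 142, 134, 139.8 and 133 TPM in WT and 146, 142, 172 and 144 TPM in KO. Replicate 3 was the highest of both genotypes for Bst2, and for Samhd1 in KO alone. Rsad2 (viperin), which makes a chain-terminating nucleotide, was at 22.7, 22.3, 34.2 and 28.6 TPM in WT and 21.9, 23.8, 35.5 and 23.5 TPM in KO. The Rsad2 values overlapped (log2 fold change -0.05, 95% interval -0.45 to 0.36). Its neighbour Cmpk2, a mitochondrial nucleotide kinase that supplies this pathway, was near the filter, at 1.06 to 2.1 TPM. Isg20, an exonuclease, had the smallest unadjusted p among positive values (limma adjusted p = 0.204), with 16.3, 16.1, 19.5 and 15.9 TPM in WT and 18.7, 18.2, 23.6 and 19.6 TPM in KO. It was named for that p. Its groups overlapped through WT replicate 3 alone. Eif2ak2 (PKR), which halts translation on double-stranded RNA, and Adar, which edits it, were steady, at 20.1 to 25.1 and 21.6 to 26.9 TPM over all libraries.

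The interferon-induced PARP genes encode ADP-ribosyltransferases, and 0 of 3 passed the test. Parp12 measured 24.2, 25.8, 24.4 and 23.0 TPM in WT, beside 23.9, 24.1, 28.7 and 26.1 TPM in KO. Parp9 measured 14.3, 15.6, 16.7 and 13.4 TPM in WT, beside 15.9, 17.5, 19.8 and 14.8 TPM in KO. The groups overlapped for both, as they did for Parp14 (8.81 to 11.7 TPM). Of the remaining genes, Rtp4, a chaperone of receptor transport, ranged from 41.9 to 73.9 TPM, and Phf11d, from 30.6 to 48.7 TPM. Xaf1, an antagonist of an apoptosis inhibitor, ranged from 48.0 to 69.8 TPM, Ifi44 from 29.4 to 40.9 TPM and Ifi35 from 35.5 to 47.5 TPM. All 5 were highest in KO replicate 3 and lowest in a WT library, and their fold changes between genotypes were 0.01 to 0.15. Slfn5, a nuclear Schlafen protein, was the steadiest gene of the set, at 38.4 to 43.3 TPM, and Sp100, a scaffold of nuclear bodies, ranged from 61.4 to 75.4 TPM.

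The size of the replicate 3 difference varied over the set. Ifit3 was 2.04 times the mean of the other 3 libraries in KO replicate 3 and 1.59 times in WT replicate 3. The ratios were 1.98 and 1.503 for Ifit2, 1.53 and 1.41 for Rtp4, and 1.54 and 1.396 for Rsad2. They were 1.592 and 1.38 for Ifit1, 1.525 and 1.338 for Cmpk2, and 1.34 and 1.354 for Isg15. All of these genes were well above the mean of the other libraries in both genotypes. Mx2 (1.87 and 0.957) and Dhx58 (1.37 and 1.02) were so in KO replicate 3 alone. Slfn5 differed little, at 1.05 and 0.985. At the other end, with KO again given first, Ifi27 was at 0.899 and 0.883, Trim25 at 0.9535 and 0.7999, and Ifi27l2a at 0.931 and 0.998. Replicate 3 was above the mean of the other 3 libraries in both genotypes for 29 of 38 genes (76.3%), against 17.9% of all genes tested. Interferon beta itself (Ifnb1) was listed at 0.07 to 0.27 TPM in WT and at 0.23, 0.21, 0.58 and 0.42 TPM in KO, with its highest value in KO replicate 3 but its lowest in WT replicate 3, and these levels are too low to be tested. Plasmacytoid dendritic cells are strong interferon producers. Without Bst2, which belongs to the set, their markers summed to 48.6 TPM in KO replicate 3. The sums were 47.3 to 49.8 TPM over the KO libraries and 50.2 to 54.9 TPM in WT, lowest in WT replicate 3. In KO replicate 3 most of the sum came from Cox6a2 (23.08 TPM) and Tcf4 (25.23 TPM). Siglech was at 0 in both replicate 3 libraries and Klk1 at 0 in all 8. Pacsin1 was highest in KO replicate 3, at only 0.16 TPM. Ly6d was at 0.07 TPM in both replicate 3 libraries and WT replicate 1, and at 0 elsewhere. The part of these markers in the pattern was not tested. Of these 7 markers 2 were tested, and 1, Cox6a2, fell in KO. Neutrophil markers summed to 150 TPM in KO replicate 3, the lowest of all libraries (up to 293 TPM). In WT replicate 3 they summed to 227 TPM, inside the WT range of 199 to 293 TPM. Their part in the pattern was not tested. Markers of 3 other cell types, all at low levels, had their highest sum of each genotype in replicate 3. These sums were 2.38 TPM in WT replicate 3 and 2.3 TPM in KO replicate 3 for conventional dendritic cells, against 1.72 to 2.34 TPM in the other libraries. For B cells they were 3.03 and 2.64 TPM, against 1.68 to 2.94 TPM. For T and NK cells they were 1.05 and 0.89 TPM, against 0.49 to 0.84 TPM. The part of these markers in the pattern was not tested either.

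**Figure D5:**
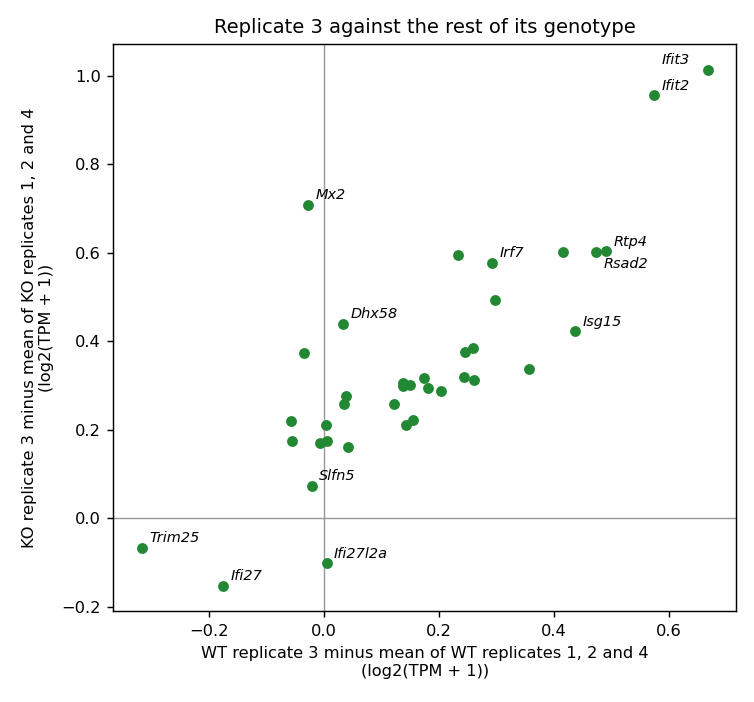
Each point is 1 of the 38 genes: the difference of replicate 3 from the mean of the other 3 libraries of its genotype, in log2(TPM + 1), for WT (horizontal axis) and KO (vertical axis). Ifit3 and Ifit2 are at the top right, 35 points lie above 0 on the KO axis, and Trim25, Ifi27 and Ifi27l2a lie below it.

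Promoters of the set were read from RefSeq (build GRCm38.p6, the assembly of mm10), as windows from 250 bases before to 50 bases after the start of transcription. Of the 38 genes, 27 had a window. Ifi27l2a, which had the largest difference between genotypes, was among the 11 without one, as were Mx1 and Ifi27. The ISRE core, searched on both strands as 2 GAAA repeats with any 2 bases between them, was present for 13 of these 27 genes (48.1%), against 3.99% of all 27025 genes with windows. The 200 bases before the start are shown for 4 genes. Ifit3, Isg15 and Rsad2 were raised in both replicate 3 libraries and hold a match. Trim25 fell in KO and holds no such match in its window. Isg15 was not among the most raised in KO replicate 3 (0.42, log2, above the other KO libraries). Ifit1 (0.60), which holds a match, was raised more there, as were Phf11d (0.59) and Irf7 (0.58), which hold none in their windows. Because they were picked for these traits, the 4 cannot show whether the match goes with the direction of change. Capitals mark the ISRE core.
Ifit3: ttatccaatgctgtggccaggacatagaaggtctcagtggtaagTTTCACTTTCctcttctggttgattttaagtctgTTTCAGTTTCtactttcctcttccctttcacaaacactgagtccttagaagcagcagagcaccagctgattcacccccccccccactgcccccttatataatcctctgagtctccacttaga
Isg15: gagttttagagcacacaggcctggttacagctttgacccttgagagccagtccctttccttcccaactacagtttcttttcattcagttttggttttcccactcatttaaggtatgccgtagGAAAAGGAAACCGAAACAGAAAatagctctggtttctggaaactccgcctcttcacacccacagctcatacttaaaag
Rsad2: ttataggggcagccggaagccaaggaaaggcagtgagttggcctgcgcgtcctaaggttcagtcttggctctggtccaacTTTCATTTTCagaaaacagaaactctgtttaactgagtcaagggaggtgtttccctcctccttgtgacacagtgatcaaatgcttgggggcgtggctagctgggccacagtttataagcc
Trim25: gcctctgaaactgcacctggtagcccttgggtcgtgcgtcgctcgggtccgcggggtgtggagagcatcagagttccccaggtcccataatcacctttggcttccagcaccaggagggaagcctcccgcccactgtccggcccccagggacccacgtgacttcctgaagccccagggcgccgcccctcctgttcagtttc
These lie at chr19:34583329-34583528 (plus strand), chr4:156200819-156201018 (minus), chr12:26456453-26456652 (minus) and chr11:88999203-88999402 (plus). Ifit3 holds 2 separate matches, whose first bases are 156 and 122 bases before the start, and Isg15 holds 3 overlapping ones. Rsad2 holds 1, at 120 bases before the start. The median difference in KO replicate 3 was 0.32 (log2) for the 13 genes with the match and 0.30 for the 14 without it. In WT replicate 3 the medians were 0.18 and 0.15. Ifit2, at 0.96 in KO replicate 3, held no match in its windows. An exact match in fixed windows cannot show that a gene lacks an ISRE, so a link between the element and the pattern was not tested.

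The wider interferon pathway was read from a list of 50 other genes. None of 19 interferon ligand genes reached the filter, and 17 of them were listed at 0 in every library. Of 12 receptor and signalling genes tested 2 rose, and of 18 genes of interferon induction 2 rose; 0 of these 30 fell, and 26 did not pass. The 13.3% called lie beside 5.61% of all genes. The absence of lower calls depended on the fit. Traf3, an adaptor of interferon induction, was at 22.6, 23.3, 20.1 and 22.6 TPM in WT and at 16.7, 17.9, 19.7 and 18.6 TPM in KO. Every KO library was below every WT library (log2 fold change -0.27, limma adjusted p = 0.0527), and the gene was called lower in 6 of 13 alternatives and in 1 of 8 fits without 1 library, that without WT replicate 3. Stat3, which signals for many cytokines (log2 fold change -0.17, limma adjusted p = 0.138), was called lower in 2 of 13 alternatives. Both were named after their values were seen. Ptpn6, which encodes the phosphatase SHP-1 that restrains cytokine receptor signalling, rose from 38.1, 38.4, 35.0 and 35.4 TPM in WT to 54.8, 51.6, 57.6 and 53.7 TPM in KO. The libraries of the genotypes were well apart (log2 fold change 0.56, SE 0.051, limma adjusted p = 0.00159), and the call held in all 8 fits without 1 library.

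Ticam1 (TRIF), the adaptor of TLR3 and TLR4, was at 16.3, 16.6, 14.7 and 14.5 TPM in WT and at 18.9, 19.7, 20.2 and 21.2 TPM in KO. Every KO library was above every WT library (log2 fold change 0.35, limma adjusted p = 0.0221). Tmem173 (STING), the adaptor of cytosolic DNA sensing, rose from 12.7 ± 1.15 to 16.1 ± 1.123 TPM (log2 fold change 0.32, limma adjusted p = 0.0453). Pias1, which encodes a SUMO ligase, rose from 11.8 ± 1.09 to 14.7 ± 0.405 TPM (log2 fold change 0.31, limma adjusted p = 0.0367). These calls were less firm than that of Ptpn6, since without 1 library Ticam1 lost its call in 4 of 8 fits, and Tmem173 and Pias1 each in 7 of 8. Their largest adjusted p-values were 0.0756, 0.124 and 0.111, all in the fit that left out KO replicate 4. All 3 were also lost without both replicate 3 libraries (adjusted p = 0.0951, 0.0732 and 0.119). The receptor chains did not pass: Ifnar1 averaged 34.7 ± 3.505 TPM in WT and 39.7 ± 0.693 TPM in KO (limma adjusted p = 0.149), and Ifnar2 at 169.9 ± 12.9 and 165 ± 4.91. Irf3, the factor that switches on Ifnb1, was at 43.9 ± 1.92 and 44.3 ± 4.43 TPM.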

How the data were processed

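The deposited table gives 1 TPM value per gene and library; per the submitters' processing notes, the authors used bcl2fastq, Salmon 1.2.0 and build mm10. No header names the unit, which was taken from the column sums of 999999 to 1000001. The annotation used with Salmon was not given in the sources used here. Depth per library is unknown, so no counting interval is given, and TPM moves with large changes in other transcripts. Symbols and coordinates came from GENCODE M21 (55240 of 55421 rows matched).

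The 13933 genes above 1 TPM in 4 or more libraries were fitted as log2(TPM + 1) by limma 3.58.1 (R 4.3.3), using a variance trend and no covariate besides genotype. P-values were adjusted by the Benjamini-Hochberg method over all 13933. The log2(TPM + 1) scale understates the change of low genes. Groups and replicate numbers came from the sample titles. The fit was tested on simulated data. BLAST 2.17.0 on GENCODE M21 transcripts gave matches to other genes of at least 90% identity over at least 300 bases.

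The genes and lists were chosen with earlier results of these data known. Values in every library are given for genes that are called or do not overlap, the 2 most abundant of each role group and the 5 with the largest spread; Mx1 and Isg20 were added for their values. Alternatives covered the pseudocount, the filter, the variance model, a replicate block, scalings, library weights and libraries left out; the fit without both replicate 3 libraries was added after seeing the data. 1 gene of the pathway list is not reported here.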

Additional observations from a re-analysis of the deposited data

Results flagged for a closer look

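In 13 of 76 sets of 4 libraries (38 genes in 2 genotypes), 1 library lay apart from the other 3 by more than Dixon's 95% critical value for the gap divided by the range. Chance would flag about 1 in 20 such sets if values were normally distributed, and the sets share libraries. The share flagged over all genes tested is not given here, so no excess over it is shown. In 9 of them KO replicate 3 was the high value: Ifit3 at 78.85 TPM (the others 37.1 to 40.9), Ifit2 at 47.8 TPM (23.5 to 25.5), Rtp4 at 73.89 TPM (47.5 to 49.3) and Phf11d at 48.69 TPM (31.4 to 32.9), and likewise Zbp1 at 53.67 TPM, Rsad2 at 35.53 TPM, Trim30a at 33.63 TPM, Ddx58 at 29.79 TPM and Samhd1 at 172.12 TPM. In 3 it was WT replicate 3, with Stat2 at 33.8 TPM (the others 25.5 to 26.7), Isg20 at 19.5 TPM and Bst2 at 851.96 TPM. Ifi27 was the 1 gene with a low value apart, 218.21 TPM in KO replicate 3 against 240.1 to 244 TPM.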

How the results depend on the processing

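Ifi27l2a kept its call under every alternative run (log2 fold change -0.76 to -0.61), and Smarcd1 did too (-0.50 to -0.36). The number of set members that fell was 1 without a filter on low values, 1 without the variance trend, and 1 in the replicate block fit, since Trim25 was then not called (limma adjusted p = 0.0816, 0.0509 and 0.0719). With 1 library left out it was 1 to 2, and 0 members rose in any fit (unadjusted p under 0.05 in 0 to 3 with 1 library left out). Over all genes, the deviations of same-numbered libraries had correlations from -0.113 to 0.012, with 0 of 4 best with their own number. Such a correlation cannot show whether a shared animal or culture day moved a small set of genes. No label states whether same-numbered libraries shared either. Under the block 10 members were higher at an unadjusted limma p under 0.05, against 1. Called pathway genes numbered 2 without a filter, 1 under the replicate block, 1 without WT replicates 3 and 4, 1 without both replicate 3 libraries and 1 to 4 with 1 library left out, against 4. They numbered 5 with the strict filter, the robust variance prior, median-of-ratios scaling or library weights, and 6 over protein-coding genes. The genes differed too: Tmem173 was not called under median-of-ratios scaling or quantile normalization, Traf3 was called lower in these 2 and in each fit with 5 or 6 calls (adjusted p = 0.0122 to 0.0496), and Stat3 under median-of-ratios scaling and over protein-coding genes (0.048 and 0.0373). The median fold change of the set was 0.03 to 0.13 with 1 library left out and 0.06 to 0.13 otherwise. Called genes over the whole table numbered 782, against 364 without a filter, 209 under the block, 372 without WT replicates 3 and 4, 166 without both replicate 3 libraries, 1326 on TPM rescaled over protein-coding genes (which leaves out Mx2), and 156 to 679 with 1 library left out. Rises were 78.4% of calls, but 56.1% under median-of-ratios scaling, 63.4% under quantile normalization and 63.5% over protein-coding genes. The share also moved with the libraries: 54% without WT replicates 3 and 4 and 56% without both replicate 3 libraries. With 1 library left out it ran from 63.7% (without WT replicate 3) to 85.9% (without WT replicate 2). The strict filter left out Cmpk2 and Mx2. Causes were not tested, beyond the fewer or more genes and libraries in a fit. TPM keeps no depth, so precision for low genes such as Cmpk2, Mx2 and Ifnb1 is unknown.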
